A study of Mus musculus with 23 samples.

Results

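Cubn, Lrp2, Dab2 and Fcgrt encode parts of the machinery by which cells take up intact protein from outside, and chromatin accessibility at their 4 loci was followed here in mouse intestinal epithelium from the suckling period to old age. Cubn encodes cubilin, a large docking receptor with no membrane-spanning segment of its own. Lrp2 encodes megalin, a receptor of the LDL receptor family that binds many ligands and carries cubilin into the cell. Dab2 encodes an adaptor that links the tails of such receptors to clathrin-coated pits. Fcgrt encodes the heavy chain of the neonatal Fc receptor, which carries maternal IgG from milk across the gut epithelium of suckling rodents. In suckling mammals the epithelium absorbs whole milk proteins by endocytosis, and this ability is lost around weaning.

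Accessibility was measured by ATAC-seq, in which a transposase inserts sequencing adapters into open DNA. Members were all peaks of the 23 libraries that overlapped 4 windows of the mm9 genome. The windows were chr2:13170000-13450000 for Cubn, chr2:69230000-69460000 for Lrp2, chr15:6200000-6460000 for Dab2 and chr7:52330000-52380000 for Fcgrt. After overlapping peaks had been merged, the windows held 67 of the 149024 accessible regions of the whole series. A peak in at least 2 libraries was found in 45 of the 67, and these 45 were tested together with the 85469 such regions of the series. Cubn had 27 regions (19 tested), Lrp2 14 (8 tested), Dab2 17 (10 tested) and Fcgrt 9 (8 tested). Regions are numbered within each locus in chromosome order. The windows are wider than the genes, which span 216, 162, 141 and 10.8 kb in RefSeq (GRCm38.p6), and can hold parts of neighbouring genes. No mm9 gene annotation was used here, so no region is assigned to a promoter, an exon, an intron or a gene. For the same reason the labelled cell types were not checked against marker genes.

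The groups differ in age and in how tissue was taken. Juvenile duodenum came from 12-day-old mice as whole epithelium. Adult (90 days) and geriatric (21 months) duodenum was separated by straining into villi, which carry differentiated absorptive cells, and crypts, which hold dividing cells. Colon epithelium came from juvenile mice at 15 days (6 pups pooled per library), from adults at 90 days (2 mice pooled) and, as proximal colon only, from geriatric mice at 21 months (2 mice pooled). The sources used here do not state strain, sex or genotype. There were 3 libraries per group, and 2 for geriatric proximal colon (replicates 1 and 3). The series text counts fewer mice than libraries, so libraries of different groups may share animals, and p-values measure only the spread between these libraries. Whole epithelium and the suckling age go together, as do separated fractions and later age, and the effects of the 2 cannot be told apart. An open region in more of the cells and a wider opening in each cell cannot be told apart either.

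The level used is the pileup, the number of extended reads stacked at a peak's summit as deposited by the authors, per M reads kept. Libraries kept 14.4 to 47.9 M reads, and the lowest pileup called as a peak was 0.205 to 0.476 per M. A library without a peak was ranked lowest, so its true level is unknown but lies under the caller's threshold. Peak lists were longer in duodenum (35105 to 60519) than in colon (11355 to 32855). Among the 5226 regions of the series with a peak in every library, juvenile duodenum stood 0.37 above later duodenum and 0.73 above juvenile colon (medians, log2 scale). In the same regions juvenile colon stood 0.30 below later colon on that scale, and the other comparisons were shifted by less than 0.1. The later colon groups differed there, with median pileups of 2.18 to 2.52 per M in adult colon and 1.02 and 0.471 in geriatric proximal colon. Adult villus 3, with the shortest read extension (68 bp), was the lowest of the 6 villus libraries in all 9 members that had a peak in all 6.

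The promoters of the 3 genes at whose loci regions were higher in juvenile duodenum than at later ages are printed here from RefSeq (GRCm38.p6). Each runs from 250 bases before to 50 after the annotated start, and Dab2 has 2 annotated starts. Capitals mark matches, on either strand, to 8 short motifs of intestinal or general promoter factors.
Fcgrt, chr7:45103773-45104072, minus strand: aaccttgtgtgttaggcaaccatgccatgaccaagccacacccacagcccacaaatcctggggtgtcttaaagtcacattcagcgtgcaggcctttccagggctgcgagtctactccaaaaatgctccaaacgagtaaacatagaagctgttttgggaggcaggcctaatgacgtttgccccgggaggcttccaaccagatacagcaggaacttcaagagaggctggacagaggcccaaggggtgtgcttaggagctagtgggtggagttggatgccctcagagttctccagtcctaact
Dab2 promoter 1, chr15:6299539-6299838, plus strand: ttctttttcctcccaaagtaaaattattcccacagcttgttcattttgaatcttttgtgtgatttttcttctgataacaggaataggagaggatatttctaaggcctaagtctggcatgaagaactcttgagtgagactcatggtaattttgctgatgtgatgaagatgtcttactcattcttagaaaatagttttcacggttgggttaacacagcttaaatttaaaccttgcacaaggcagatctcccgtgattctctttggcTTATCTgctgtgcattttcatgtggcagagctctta
Dab2 promoter 2, chr15:6386498-6386797, plus strand: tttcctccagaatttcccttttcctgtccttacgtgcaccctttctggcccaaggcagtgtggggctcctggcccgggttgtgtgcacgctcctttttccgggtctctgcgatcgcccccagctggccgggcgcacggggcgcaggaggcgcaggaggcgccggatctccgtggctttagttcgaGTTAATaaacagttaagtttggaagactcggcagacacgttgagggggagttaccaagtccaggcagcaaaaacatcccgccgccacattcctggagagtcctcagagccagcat
Lrp2, chr2:69585980-69586279, minus strand: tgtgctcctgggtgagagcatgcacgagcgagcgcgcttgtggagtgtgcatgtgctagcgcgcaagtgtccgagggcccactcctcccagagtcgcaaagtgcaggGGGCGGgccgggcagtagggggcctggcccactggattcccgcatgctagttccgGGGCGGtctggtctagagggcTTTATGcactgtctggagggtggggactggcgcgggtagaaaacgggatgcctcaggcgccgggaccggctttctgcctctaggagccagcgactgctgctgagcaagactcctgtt
The letters searched were AGATAA for the zinc finger factors of the GATA family, GTTAAT for a half-site of HNF1, TTTATG for CDX factors, GGGCGG for KLF and SP factors, CAAAGTCCA for HNF4, GAAAGTG for a core of the PRDM1 site, TATAAA for the core promoter box of that name, and AGGTCA for a nuclear receptor half-site. No 2 matches overlapped. Dab2 promoter 1 held the GATA letters 14 bases after the start, on the opposite strand. Anywhere in the 300 bases and on either strand, these letters are found in 11.2% of the 32851 mouse promoters in the table, and the shares that follow are counted the same way. Dab2 promoter 2 held the HNF1 half-site, found in 7.10% of promoters. Lrp2 held the CDX letters (11.9% of promoters) and the KLF and SP letters at 2 places (35.7% of promoters hold them). No searched letters were found in the Fcgrt promoter or in that of Cubn, which is not printed because no Cubn region was higher in juvenile duodenum in this sense. HNF4 letters occur in 0.475% of all promoters, PRDM1 letters in 4.81%, letters of the core promoter box in 13.6% and the nuclear receptor half-site in 16.3%, and none of these was found at the 4 genes. GC content was 37.7% in Dab2 promoter 1 and 59.3% in promoter 2, 65% at Lrp2, 53.3% at Fcgrt and 44.3% at Cubn, against a median of 52.7%. Promoter 2 of Dab2 and the Lrp2 promoter held 19 and 20 CpG sites, against 2 in promoter 1 of Dab2, 5 at both Fcgrt and Cubn and a median of 7. These are descriptions of GRCm38 sequence, and the mm9 peaks were not placed on them.

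On average, juvenile duodenum carried the most accessible regions at these loci, and by count it stood above every other library at Dab2 and Fcgrt. Over all 4 loci a peak was present in 31 ± 4.58 regions per juvenile duodenum library, 22.7 ± 6.51 in adult villus, 16.7 ± 5.51 in adult crypt, 16.7 ± 1.15 in geriatric villus and 13.3 ± 4.16 in geriatric crypt (SD, n = 3 each). In colon the counts were 9.67 ± 0.577 in juvenile and 15 ± 5.57 in adult libraries (SD, n = 3 each), and 2 and 4 in the geriatric proximal colon libraries. The highest adult villus library (29) lay within the juvenile range of 27 to 36, and from adult villus down through the crypts, geriatric villus and adult colon to juvenile colon each group met or overlapped the next. Geriatric proximal colon lay below every other library.
At Dab2 the 3 juvenile duodenum libraries had 8 to 9 regions with a peak and no other library more than 6. At Fcgrt they had 5 to 6 and no other library more than 4. At Cubn juvenile duodenum (10 to 16) overlapped with adult villus (9 to 17), and at Lrp2 (3 to 5) with adult villus (2 to 5).
The order of the groups is partly that of the lengths of the peak lists, so the same counts were taken as a share of each library's own peaks. The share was 0.0546 to 0.0687% in juvenile duodenum, 0.0371 to 0.0568% in adult villus and 0.0423 to 0.0609% in adult colon, which overlap. By share, juvenile colon (0.0448 to 0.0518%) lay above adult crypt (0.0271 to 0.0398%), the reverse of the order by count. At Dab2 juvenile duodenum (0.0162 to 0.0199%) was above the other duodenum libraries (at most 0.00865%) but overlapped with adult colon (0.00470 to 0.0183%). At Fcgrt it (0.0110 to 0.0121%) was again above the other duodenum libraries (at most 0.00852%) and overlapped with juvenile colon (0.00494 to 0.0115%).

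**Figure D1:**
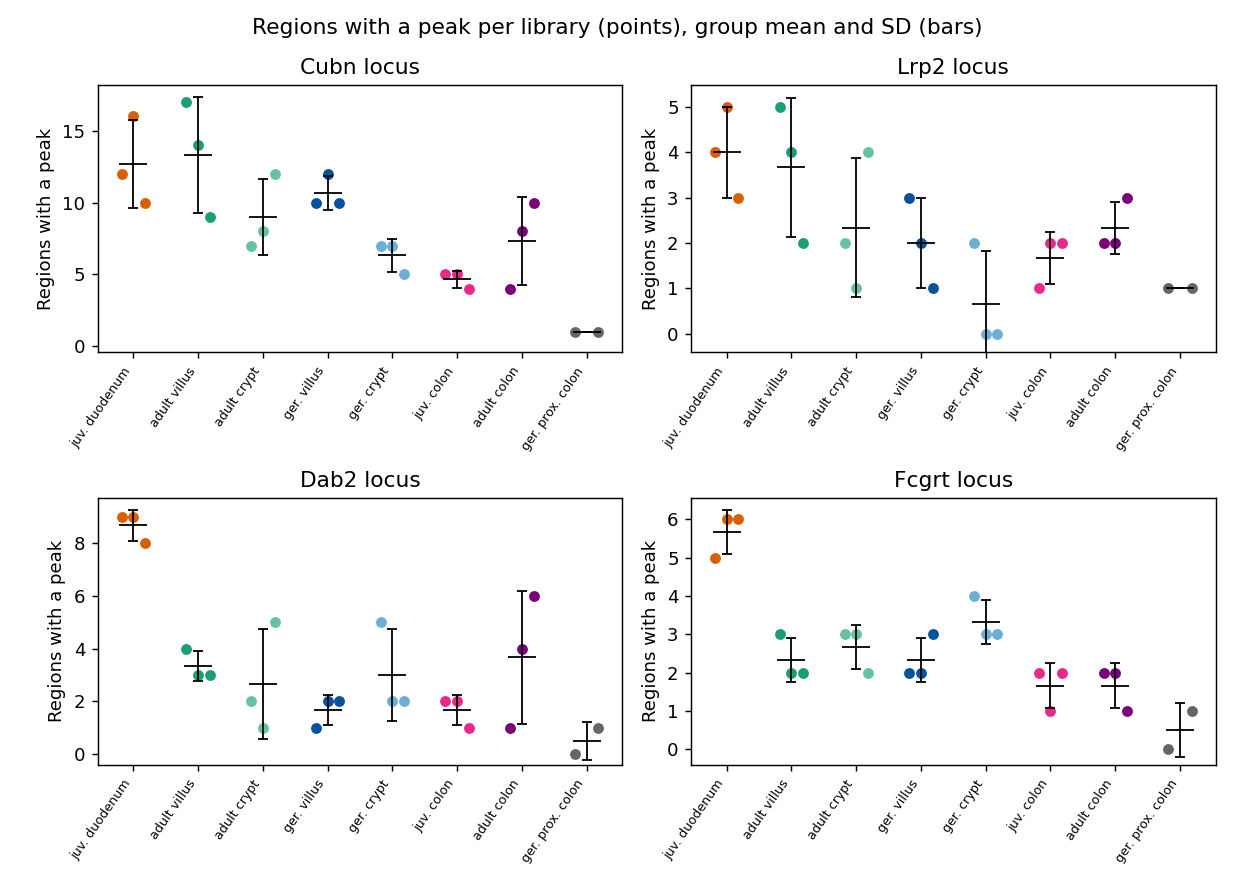
Number of merged regions with a peak in each library (points) at the 4 loci, for the 8 groups, with the group mean and SD (bars; n = 3, and 2 for geriatric proximal colon). Juvenile duodenum stands above all other libraries at Dab2 (8 to 9 regions) and Fcgrt (5 to 6) and overlaps with adult villus at Cubn and Lrp2.

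The first comparison set the 3 juvenile duodenum libraries against the 12 later duodenum libraries. A region was called where every library of one side was above every library of the other. Of the 45 tested members, 9 (20%) were called higher in juvenile duodenum, where 6.65% of all tested regions were. None was called higher in later duodenum, where 0.337% of all tested regions were. The 9 comprised 3 of 8 Fcgrt regions, 4 of 10 Dab2 regions, 2 of 8 Lrp2 regions and 0 of 19 Cubn regions.
Of the 9, 5 (Fcgrt regions 6, 7 and 8 and Dab2 regions 2 and 14) passed the filter of 2 libraries only through juvenile duodenum, so they had to differ, and their values are a description that supports nothing. When a peak was required in at least 2 libraries other than juvenile duodenum, an alternative chosen after seeing the data, 4 of the remaining 36 members (11.1%) were called higher, against 2.61% of 75116 regions. The 4 were Dab2 regions 9 and 10 and Lrp2 regions 1 and 13.
Each of the 9 had p = 0.0044 in a two-sided exact permutation test of ranks over libraries, the smallest that 3 against 12 allows. For the 5 that passed the filter only through juvenile duodenum this p supports nothing. After Benjamini-Hochberg adjustment over the 85469 regions that exact permutation p became 0.0629, above 0.05 for every region of the series. This rests on how the two-sided p is defined, here as the smaller one-sided p doubled, a definition adopted after the other had been run. With the share of divisions that give as large an absolute difference, the adjusted exact permutation p was 0.0360, and the 9 members and 5217 regions in all passed 0.05. Unadjusted, 11 of the 45 had an exact permutation p under 0.05, a count given without its share over all tested regions and so a description only. With limma, a linear model with shared variance run as an alternative, 11 members were higher in juvenile duodenum (7.27% of all tested regions were) and 0 lower (0.405% were) at an adjusted p under 0.05. The 11 include the same 5, and also Dab2 region 6 and Cubn region 18, which likewise passed the filter only through juvenile duodenum.
Over all tested regions the median difference in mean log2(pileup per M + 0.1), juvenile minus later, was 0, and over the 45 members it was 0.37. The 5226 regions open in every library, also shifted by 0.37, are a different set. Of the members only Cubn region 1 belongs to it.

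At the Fcgrt locus, 3 neighbouring regions within 3384 bp were open in every juvenile duodenum library and in none of the other 20. Region 6 (chr7:52367947-52368256) had pileups of 1.32, 1.09 and 1.32 per M in the juvenile libraries 1 to 3. Region 7 (chr7:52368920-52369251) had 0.659, 1.26 and 1.14. Region 8 (chr7:52370991-52371330) had 0.769, 1.13 and 1.86. These were peaks of ordinary to high strength, higher than 69.8 to 79.3% of the peaks of the same library for region 6, 34.9 to 77.0% for region 7 and 47.5 to 86.8% for region 8.
The call of region 7 was lost when peaks were held to −log10 q of at least 5, and also with lists of equal length.

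Across all tested regions of the series, 3.56% were open in every juvenile duodenum library and nowhere else. Among the members 5 of 45 were (11.1%), the Fcgrt trio and Dab2 regions 2 and 14. All 5 passed the filter only through juvenile duodenum, so this share is a description that supports nothing. Fcgrt region 2 was also seen in juvenile duodenum alone, in 2 of its 3 libraries.
The remaining Fcgrt regions were not restricted to the suckling age. Region 9 (chr7:52379597-52380040), at the window's edge, had a peak in 22 of 23 libraries. It reached 1.26, 1.66 and 1.98 per M in juvenile duodenum and 3.17, 3.31 and 3.38 in adult colon, above every other library of the series. Its mean was 1.63 ± 0.357 in juvenile duodenum, 1.54 ± 0.893 in adult villus, 1.87 ± 0.563 in adult crypt, 1.62 ± 0.598 in geriatric villus and 1.42 ± 0.507 in geriatric crypt (SD, n = 3 each), so the duodenum groups overlapped.
In juvenile colon region 9 stood at 1.42 ± 0.218, against 3.28 ± 0.108 in adult colon (SD, n = 3 each), and geriatric proximal colon had 1 peak at 0.588. Region 4 (chr7:52359049-52359534) was open in 14 of 15 libraries from duodenum and in 4 of 8 from colon. It was at 1.04, 1.22 and 1.50 in juvenile duodenum, 0.981 to 1.17 in adult crypt and 0.403 to 0.595 in geriatric villus. Its geriatric villus libraries were below every other duodenum library with a peak. Region 5, outside the naming rule and chosen after its values were seen, was open in all 3 geriatric crypt libraries (0.802, 0.625 and 0.494) and otherwise in adult villus 3 and geriatric villus 3.

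**Figure D2:**
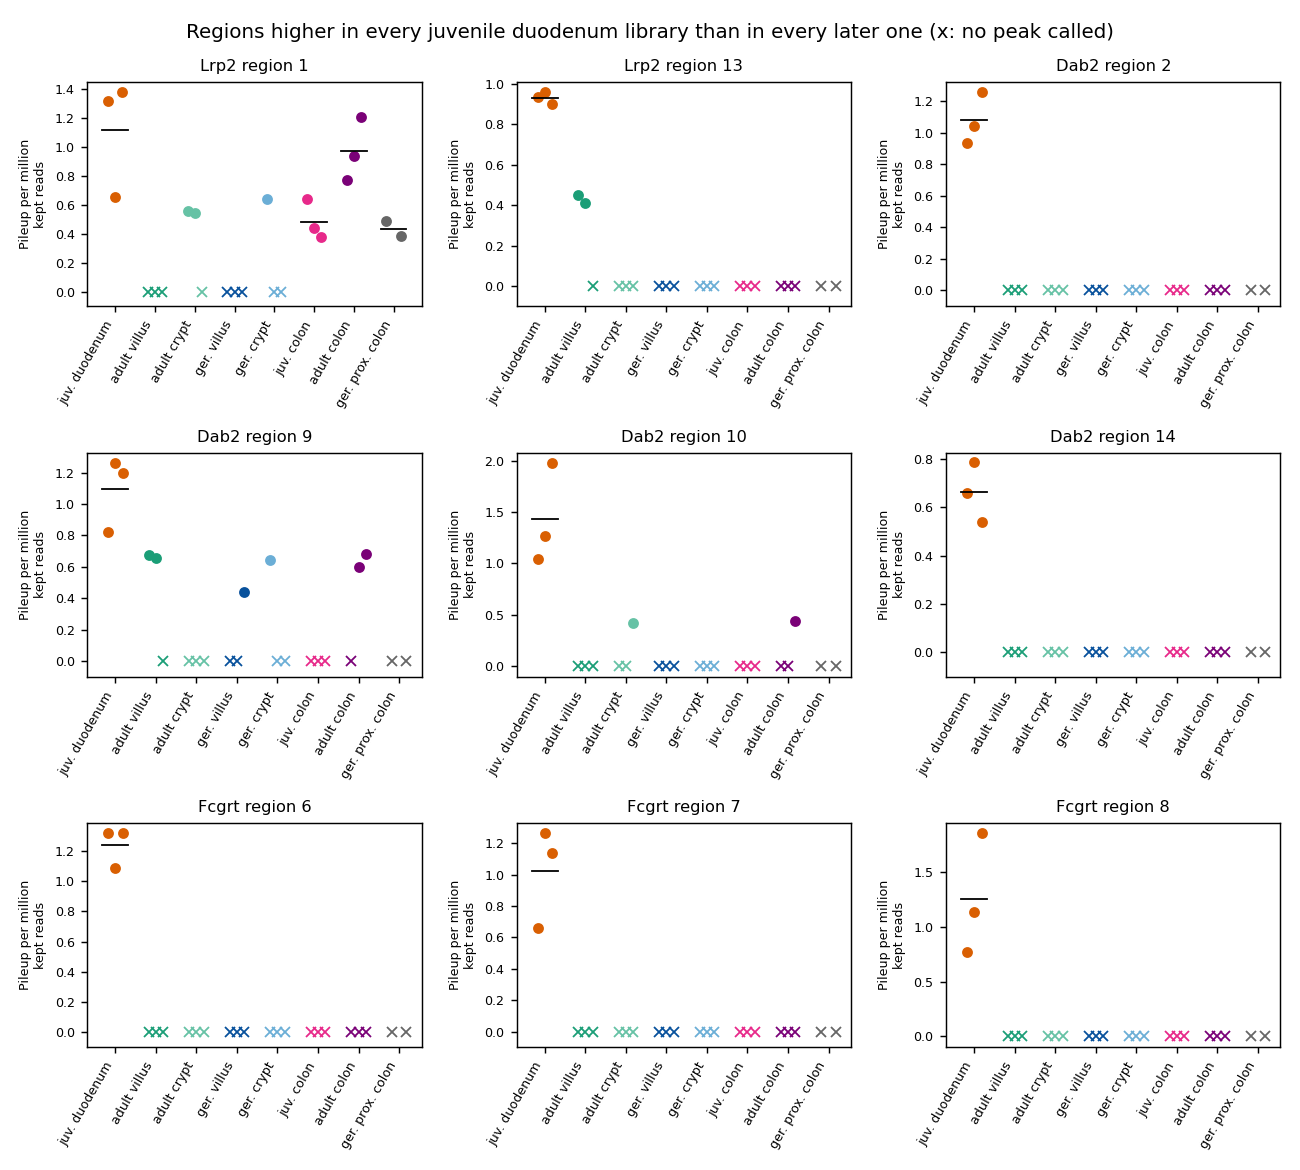
Pileup per M kept reads in the 9 regions called higher in juvenile duodenum than in every later duodenum library, by group. Points are libraries, crosses libraries with no peak (level unknown, drawn at 0), and bars the mean where all libraries of a group had a peak. Crosses fill all other groups in Fcgrt regions 6 to 8 and Dab2 regions 2 and 14, whereas Lrp2 region 1 is also open in all colon libraries.

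Dab2, the adaptor gene, had the most regions of this kind, spread over 190961 bp of its window. Region 2 (chr15:6204430-6204727) was at 0.934, 1.05 and 1.26 per M in juvenile duodenum and had no peak in any other library. Region 14 (chr15:6395218-6395390) was likewise open in juvenile duodenum alone, at 0.659, 0.784 and 0.539, among the weaker peaks of those libraries in replicate 3, where it exceeded only 8.20% of the others. Region 10 (chr15:6325045-6325391) was the strongest, at 1.04, 1.26 and 1.98, and elsewhere was seen only in adult crypt 3 (0.419) and adult colon 3 (0.445).
In region 10 the suckling and the later duodenum did not overlap. Regions 2 and 14 passed the filter only through juvenile duodenum, so there the lack of overlap was fixed in advance and supports nothing. For region 10, limma, with libraries lacking a peak set to their lowest called pileup, gave an excess of 1.80 ± 0.36 on the log2 scale (SE, adjusted p = 1.12e-04). Region 14 lost its call with peaks at −log10 q of at least 5 and with lists of equal length.

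Region 9 (chr15:6321464-6321867) was at 0.824, 1.26 and 1.20 in juvenile duodenum. Later it had a peak in 4 of 12 duodenum libraries at 0.437 to 0.677, and in 2 adult colon libraries at 0.601 and 0.681. Its groups did not overlap on the per M scale, but the call was lost when each library was scaled to the regions open in all libraries.
Dab2 region 8 (chr15:6269386-6269892) was open in all 3 juvenile duodenum libraries (0.566 to 0.769), in 6 of 12 later duodenum libraries (0.460 to 0.909) and in adult colon 2 and 3, and the ages overlapped. Region 11 (chr15:6336350-6336945) was open in juvenile duodenum (0.604, 0.566 and 0.718), in the 3 geriatric crypt libraries (1.12, 0.714 and 0.297) and in adult crypt 3 (0.586), but in only 1 of the 6 villus libraries, and in 3 colon libraries at 0.410 to 0.471. The geriatric crypt range enclosed the juvenile one.
Region 7 (chr15:6266844-6267022), a narrow region of 179 bp, had a peak in 19 libraries of all 8 groups at 0.568 to 1.21 per M. Adult villus 3 (0.992) was the highest of the villus libraries there, above 97.3% of its own peaks. Region 7 was also the only member with an unadjusted p under 0.05 between adult and geriatric duodenum (exact permutation p = 0.0411, adjusted 1), with overlapping groups.

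At the Lrp2 locus, megalin's gene, the 2 called regions behaved differently outside juvenile duodenum. Region 13 (chr2:69450398-69450687) was at 0.934, 0.959 and 0.898 per M in juvenile duodenum, at 0.451 and 0.409 in 2 adult villus libraries, and had no peak in crypt, geriatric villus or colon. The limma excess was 1.28 ± 0.32 on the log2 scale (SE, adjusted p = 0.00310). Region 1 (chr2:69233761-69234368), near the other end of the window, was at 1.32, 0.654 and 1.38 in juvenile duodenum.
Region 1 had no peak in any of the 6 villus libraries, but a peak in 3 of 6 crypt libraries (0.545 to 0.642) and in all 8 colon libraries (0.376 to 1.20). Its lowest juvenile library (0.654) was close to its highest later one (0.642). The call was lost when a peak had to cover 50% of the merged region, and limma gave 1.35 ± 0.37 on the log2 scale (SE, adjusted p = 0.00649).
Lrp2 region 11 (chr2:69441882-69442465) was open in 12 of 15 duodenum libraries and in no colon library. It was at 1.04, 0.959 and 0.898 in juvenile duodenum, and among later libraries adult villus 1 (0.902) and 2 (0.981) exceeded the lowest of these. A member outside the naming rule, region 2, chosen after its values were seen, was open in the 3 adult colon libraries (0.984, 1.20 and 1.49), in juvenile colon 3 (0.334) and in geriatric villus 1 (0.713). Geriatric crypt libraries 2 and 3 had no peak in the whole Lrp2 window.

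**Figure D3:**
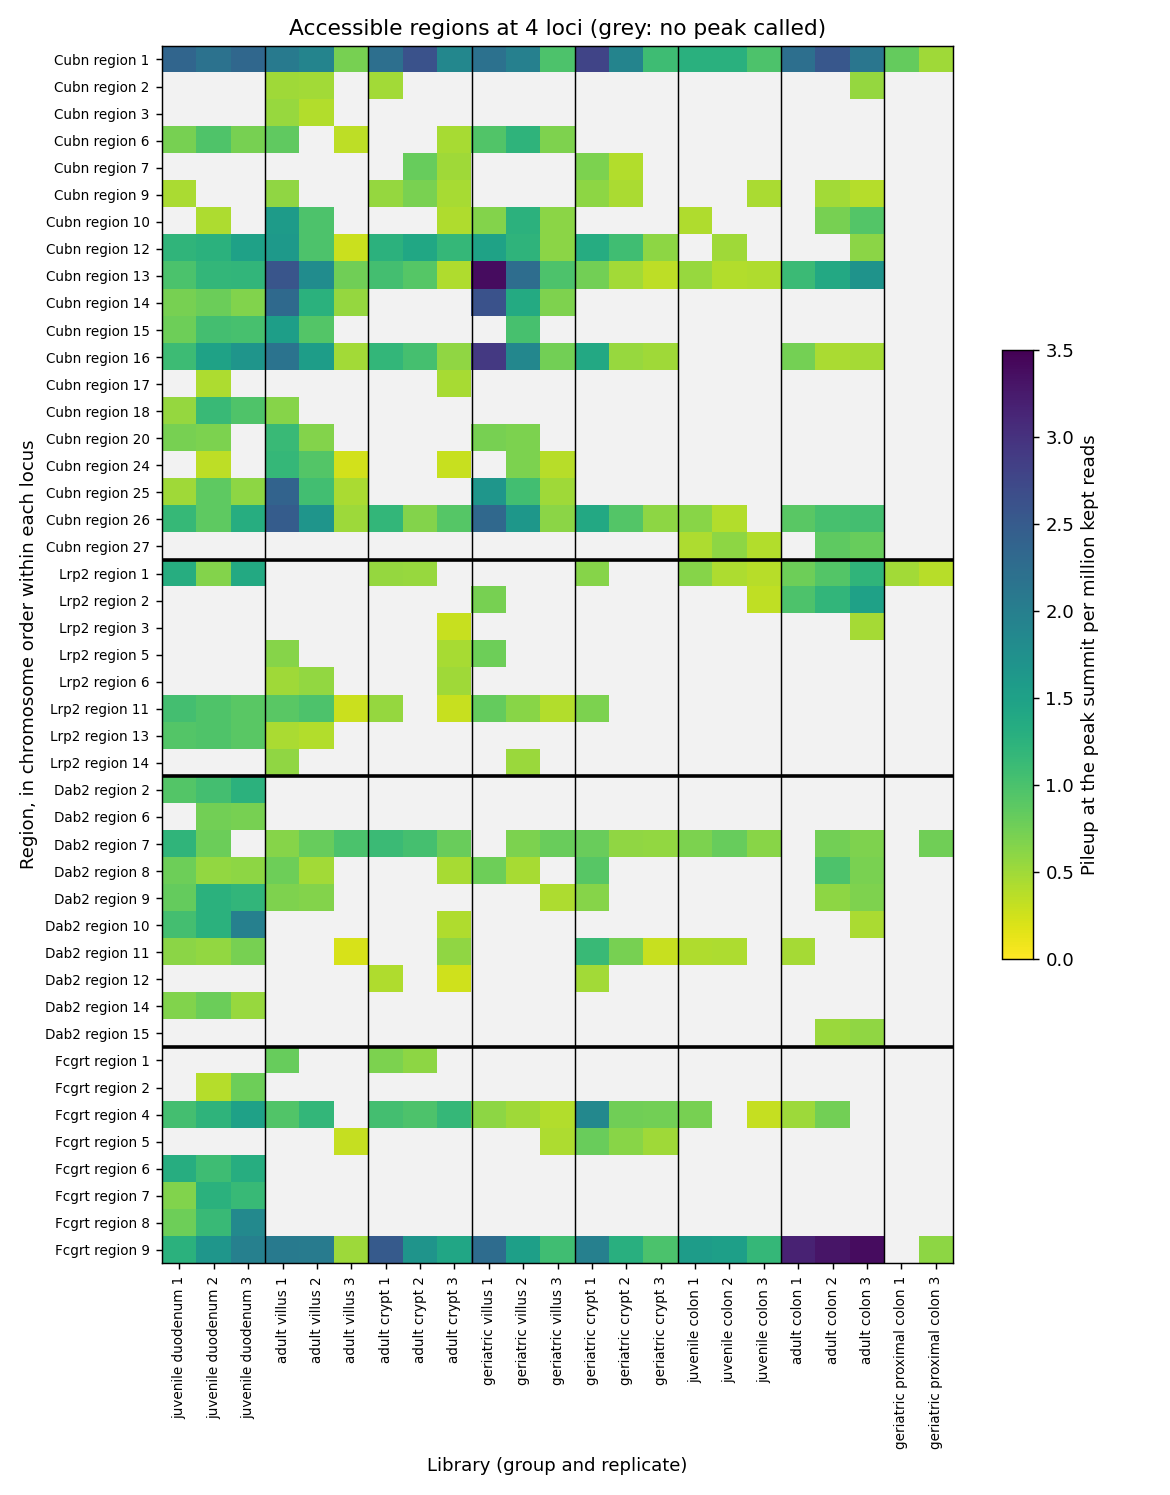
Pileup per M kept reads of the 45 tested regions (rows) in the 23 libraries (columns), with grey where no peak was called. The Fcgrt trio and several Dab2 regions fill only the juvenile duodenum columns, while Cubn regions 13, 14, 16, 25 and 26 are darkest in the first library of each villus group.

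At Cubn, the gene of cubilin, the 10 regions open in all 3 juvenile duodenum libraries each had a peak in at least 1 of the 6 later villus libraries, and 9 of them in at least 3. Of the 17 regions with a peak in any juvenile duodenum library, 3 had none in villus. No tested Cubn region was called between juvenile and later duodenum in either direction. The nearest was region 18 (chr2:13414557-13414860), at 0.549, 1.13 and 0.958 in juvenile duodenum, which was also seen in adult villus 1 (0.632), above the lowest juvenile library. Its exact permutation p was 0.0088 (adjusted 0.107), and limma gave an excess of 1.15 ± 0.32 on the log2 scale (SE, adjusted p = 0.00855). Region 18 passed the filter on libraries with a peak only through juvenile duodenum, so these values are a description that supports nothing.
Of the 19 tested Cubn regions, 12 lay in the last 56492 bp of the region list (regions 12 to 27). Villus and crypt separated in 2 of them.

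The comparison of the 6 villus with the 6 crypt libraries asked how the loci vary along the axis of differentiation. Of the 45 members, 2 were called higher in villus (1.44% of all tested regions were) and 0 higher in crypt (2.09% were). Both lay at Cubn. Region 14 (chr2:13402473-13402749) was at 2.30, 1.27 and 0.547 per M in adult villus and 2.62, 1.35 and 0.672 in geriatric villus, and had no peak in crypt or colon. In whole juvenile epithelium it was at 0.714, 0.784 and 0.659, within the villus range.
Region 25 (chr2:13443788-13444193) was at 2.39, 1.06 and 0.444 in adult villus, 1.66, 1.06 and 0.504 in geriatric villus and 0.494, 0.871 and 0.599 in juvenile duodenum, again with no peak in crypt or colon. For both, the exact permutation p was 0.00216, the smallest that 6 against 6 allows, and 0.0612 after adjustment. Unadjusted, 6 of the 45 had an exact permutation p under 0.05, all at Cubn and all with more villus. That count is given without its share over all tested regions and is a description only. By limma 3 were higher in villus (4.27% of all tested regions were) and 0 higher in crypt (1.5% were). These were region 14 with 1.76 ± 0.36 on the log2 scale (SE, adjusted p = 8.42e-04), region 25 with 1.47 ± 0.35 (adjusted p = 0.00376) and region 13 with 1.35 ± 0.38 (adjusted p = 0.0129).
The call of region 25 was lost with peaks at −log10 q of at least 5 and with a cover of 50%.

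Regions 13 to 16 of Cubn lie within 6016 bp and showed this order in part. Region 13 (chr2:13400692-13401244), outside the naming rule and chosen after its values were seen, was open in all 21 libraries other than geriatric proximal colon. Its level was 1.96 ± 0.995 in villus and 0.662 ± 0.287 in crypt (SD, n = 6 each), and the 2 fractions overlapped through adult villus 3 (0.752) and geriatric villus 3 (0.974).
In colon, region 13 stood at 0.538, 0.406 and 0.418 in juvenile and 1.11, 1.39 and 1.70 in adult libraries. Region 15 (chr2:13403900-13404193) was open in juvenile duodenum (0.769, 1.05 and 1.02), in 2 adult villus libraries (1.53 and 0.940) and in 1 geriatric villus library (1.02), and in no crypt or colon library. Region 16 (chr2:13406119-13406707) was open in all 15 duodenum libraries and in the 3 adult colon libraries.
The range of region 16 was 1.10 to 1.68 in juvenile duodenum, 0.479 to 2.91 in villus and 0.494 to 1.39 in crypt, so these overlapped, and 0.451 to 0.727 in adult colon. Region 6 (chr2:13293864-13294154), farther into the window, was open in juvenile duodenum (0.714, 0.959 and 0.718), in 5 of 6 villus libraries (0.342 to 1.22) and in 1 crypt library (0.460).
In all, 6 of 19 Cubn regions and 2 of 8 Lrp2 regions had a peak in villus but in no crypt or colon library, against 0 at Dab2 and Fcgrt and 10.5% of all tested regions.

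**Figure D4:**
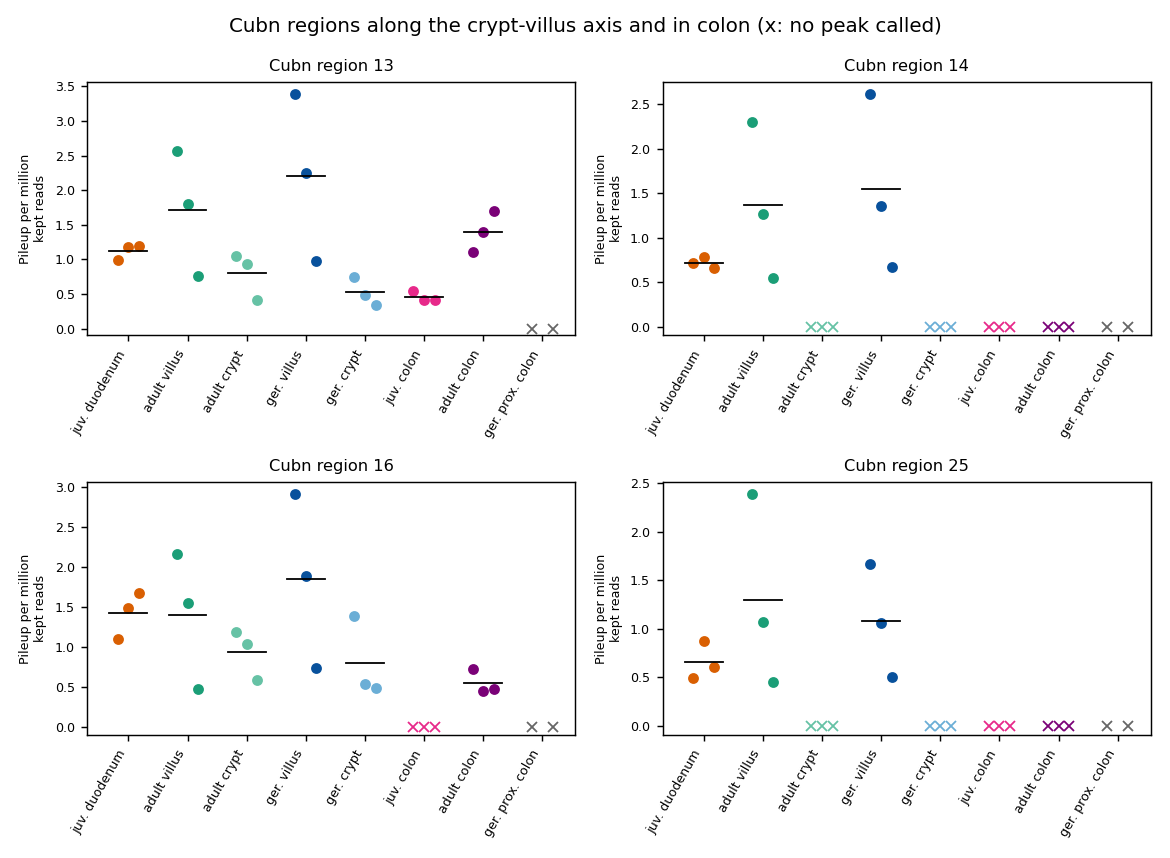
Pileup per M kept reads of 4 Cubn regions by group, with points for libraries, crosses for libraries with no peak (drawn at 0) and bars for the mean where all libraries of a group had a peak. Regions 14 and 25 are open in juvenile duodenum and both villus groups only, whereas regions 13 and 16 are also open in crypt and adult colon.

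Cubn region 1 (chr2:13192733-13193435) was the only member with a peak in all 23 libraries. It was at 2.36, 2.18 and 2.33 in juvenile duodenum, and its mean was 1.57 ± 0.743 in adult villus, 2.24 ± 0.366 in adult crypt, 1.72 ± 0.654 in geriatric villus and 1.93 ± 0.847 in geriatric crypt (SD, n = 3 each). The duodenum groups overlapped. In colon it was at 1.18 ± 0.173 in juvenile and 2.30 ± 0.227 in adult libraries (SD, n = 3 each). In geriatric proximal colon it was at 0.828 and 0.500. These 3 groups did not overlap per M kept reads, but their scales differed as well. In the regions with a peak in every library the median was 0.919 to 1.31 in juvenile and 2.18 to 2.52 in adult colon. It was 1.02 and 0.471 in geriatric proximal colon. Whether Cubn region 1 differed beyond that scale was not tested.

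Duodenum and colon were compared within the suckling period, 3 libraries against 3. Of the 45 members, 23 (51.1%) were called higher in juvenile duodenum, where 31.1% of all tested regions were, and 1 was called higher in juvenile colon, where 0.804% were. The 23 comprised 10 of 19 Cubn regions, 3 of 8 Lrp2 regions, 6 of 10 Dab2 regions and 4 of 8 Fcgrt regions.
The smallest exact permutation p that 3 against 3 allows is 0.1 (adjusted 0.313), so no region could pass 0.05 and 0 members had an unadjusted p under 0.05, whereas limma called 25 higher (35% of all tested regions were) and 0 lower (0.668% were). Of the 23, the same 5 regions and Cubn region 18 passed the filter only through juvenile duodenum. Without members of that kind 17 of 36 were called, against 30.1% of all regions so filtered. The count fell to 6 (12.5% of all tested regions) with lists of equal length and to 11 (12.1%) when a peak had to cover 50% of the region. The member called higher in colon was Cubn region 27 (chr2:13447669-13448164), outside the naming rule. It was at 0.436, 0.593 and 0.397 in juvenile colon and at 0.865 and 0.812 in 2 adult colon libraries, with no peak in any duodenum library.

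The next comparison pooled mice past the suckling period. In the 12 later duodenum against the 5 later colon libraries, 0 of the 45 were called higher in duodenum (1.72% of all tested regions were) and 0 higher in colon (0.041% were). Unadjusted, 6 had an exact permutation p under 0.05, a count given without its share over all tested regions and so a description only. Cubn region 12 (chr2:13391673-13392211) was the only member with an adjusted p under 0.05 (exact permutation p = 9.7e-04, adjusted 0.0454). Of all 85469 tested regions, 1824 had an adjusted exact permutation p under 0.05 in this comparison.
That region was open in all 12 later duodenum libraries (0.274 to 1.62) and in 1 of 5 later colon libraries, adult colon 3 (0.602), which lay within the duodenum range. It was at 1.21, 1.26 and 1.50 in juvenile duodenum. With limma 0 members were higher in later duodenum (1.88% of all tested regions were) and 1 lower (0.55% were), Lrp2 region 2, whose difference was −0.98 ± 0.30 on the log2 scale (SE, adjusted p = 0.0443).

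No member was called between ages within the later duodenum or within the colon. Between 6 adult and 6 geriatric duodenum libraries, 0 members were called in either direction, where 0.0211% of all tested regions were higher in adult and 0.00702% higher in geriatric libraries. Unadjusted, 1 member had an exact permutation p under 0.05, Dab2 region 7, again without a share over all tested regions and as a description only. Between 3 juvenile and 5 later colon libraries, 0 members were called, where 0.198% of all tested regions were higher in juvenile and 0.429% higher in later colon, and 0 had an unadjusted p under 0.05. limma called 0 members in these 2 comparisons, where it called 0% of all tested regions between adult and geriatric duodenum in either direction, 0% higher in juvenile colon and 0.00117% higher in later colon.

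The authors' deposited lists of differential regions, made from these same libraries, overlapped the members as follows. In the authors' deposited table of regions higher in juvenile duodenum than in adult villus, 10 members were listed (14.9% of the 67, against 4.54% of all 149024 regions). They were Fcgrt regions 2, 6, 7 and 8, Dab2 regions 2, 6, 10 and 14 and Lrp2 regions 1 and 13. Against geriatric villus the authors' deposited table listed 7 (10.4%, against 3.25% of all regions), which were Fcgrt regions 6, 7 and 8, Dab2 regions 2, 6 and 10 and Lrp2 region 13. In both lists the Fcgrt regions and Dab2 regions 2, 6 and 14 had a peak in juvenile duodenum alone. Such regions are members only through the group where they are high, so these shares are a description that supports nothing. The same holds for Fcgrt regions 6 and 8 in the list against juvenile colon. No member was in the authors' deposited lists of regions higher in adult or geriatric villus than in juvenile duodenum. These lists held only 3.97% (adult) and 2.87% (geriatric) of all regions.
For villus over crypt, the authors' deposited table named Cubn regions 14, 15 and 25 in adults (4.48% of members, 2.09% of all regions). In geriatric mice the authors' deposited table named Cubn regions 13, 14, 20, 24 and 25 (7.46%, 2.63% of all regions). The authors' deposited lists in the direction of crypt named no member. They held 2.35% of all regions in adults and 1.38% in geriatric mice. In the authors' deposited table Cubn regions 14, 15, 16 and 25, Dab2 region 10 and Fcgrt regions 6 and 8 were higher in juvenile duodenum than in juvenile colon, and Cubn region 27 and Fcgrt region 9 the reverse (10.4% and 2.99% of members, 3.86% and 3.93% of all regions), although the pileups of Fcgrt region 9 overlapped between these groups. Fcgrt region 9 was also listed in the authors' deposited tables as higher in adult colon than in adult villus, adult crypt, juvenile colon and geriatric proximal colon. The lists against juvenile and geriatric proximal colon each held 1.49% of members. They held 1.33% and 1.17% of all regions. Between the organs in single later groups the lists did hold members. Higher in adult villus than in adult colon were, in the authors' deposited table, Cubn regions 14, 15, 16, 24 and 25 and Lrp2 region 11 (8.96% of members, 4.66% of all regions). Higher in adult colon were Cubn regions 1 and 27, Lrp2 regions 1 and 2, Dab2 region 15 and Fcgrt region 9 (8.96%, 4.87% of all regions), again in the authors' deposited table. Against adult crypt the authors' deposited table had Cubn region 27, Lrp2 region 2, Dab2 regions 9 and 15 and Fcgrt region 9 higher in adult colon (7.46%, 5.59% of all regions) and Cubn region 12 higher in crypt (1.49%, 3.67% of all regions). In geriatric mice the authors' deposited table had Cubn regions 14, 16 and 25 higher in villus than in proximal colon (4.48%, 1.40% of all regions) and Lrp2 region 1 higher in proximal colon than in crypt (1.49%, 0.348% of all regions).
Dab2 region 15 was listed in the authors' deposited table as higher in juvenile colon than in geriatric proximal colon (1.49% of members, 2.03% of all regions). It had no peak in either group in the per-library tables, only in adult colon 2 (0.526) and 3 (0.576).

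The 22 regions seen in a single library were not tested. Juvenile duodenum held 9 of them, adult villus 6, adult colon 3, adult crypt 2 and geriatric crypt and juvenile colon 1 each. Their pileups were 0.239 to 0.767 per M with a median of 0.479.
Outside the 4 windows, the region whose level over the 23 libraries was most like that of Fcgrt region 6 was chr5:47667590-47668064 (Pearson r = 1.00 over the 23 libraries). For Dab2 region 10 it was chr10:126408072-126408274 (r = 0.984) and for Cubn region 18 chr2:59385860-59386136 (r = 0.999). For Lrp2 region 13 the second most alike was chr1:157300376-157300706 (r = 0.999). These regions have a peak in 3 to 5 libraries, and the correlation follows mainly from which libraries have none, so it is a description only.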

How the data were processed

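ATAC-seq peaks of 23 libraries of mouse intestinal epithelium were used. Per the file headers, the authors called peaks on each library alone with MACS2 2.1.0.20150731, without a control, with a q cutoff of 0.05 and a read extension set per library (68 to 210 bp). The deposited pileup signal is unscaled coverage at the summit. The deposited −log10 p-value, −log10 q-value and fold enrichment (a ratio to the local background) are the authors' own per peak and served only to filter or rank peaks within a library. The 28 deposited lists of regions cover 14 comparisons between groups, and the submitters' processing notes name mm9, DiffBind, Picard 2.18.27, bedtools 2.17.0, deepTools, SAMtools 0.1.19, Bowtie2 and cutadapt 1.9.1 without roles. The sources used here do not state whether reads were shifted for the transposase.

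Peaks sharing at least 1 bp were merged, and each library's highest peak in a region, divided by its kept reads in M, was its level. Precision is limited by depth (14.4 to 47.9 M kept reads). Groups came from sample titles. Each region was tested with a two-sided exact permutation test of mean rank (the smaller one-sided p doubled), adjusted by Benjamini-Hochberg over 85469 regions, in 6 comparisons. limma 3.58.1 on log2(pileup per M + 0.1) was an alternative, with missing peaks set to the library's lowest pileup (R 4.3.3). Python 3.11.15, numpy 2.4.6, pandas 2.3.3, scipy 1.17.1 and matplotlib 3.10.9 were used, and the tests were checked on simulated data. The two-sided p was first taken from absolute differences, and the doubled p reported here, the convention of scipy, was adopted after those results had been seen. The first convention is given beside it. Alternatives were equal list lengths, a stricter q, 50% cover, 2 other scales, no filter on single-library regions, presence alone, limma, replicate blocks and leaving out each library. Fold enrichment, villus only, crypt only and a filter on libraries other than juvenile duodenum were added after seeing the data.

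Named regions were, per locus, up to 8 with a peak in every library of a group and a call in any comparison, plus the region with a peak in the most libraries. The windows, members and lists were chosen with earlier results of these data known. Lists of cell type markers and of other uptake genes needed an mm9 annotation and were not analysed here.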

Additional observations from a re-analysis of the deposited data

Results flagged for a closer look

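In 4 regions every library moved one way in one age, fraction or organ and the opposite way in another, which flagged them here. The differences between these effects were not tested. Each effect is a difference of mean pileup per M kept reads over 2 to 3 libraries a group, with a library lacking a peak at 0. The levels were not scaled to the regions with a peak in every library. In those regions the median pileup per M was 2.18 to 2.52 in adult colon and 0.919 to 1.31 in juvenile colon. It was 1.02 and 0.471 in geriatric proximal colon and 0.650 to 2.44 in duodenum. Whether this scale plays a part in the opposite signs was not tested.

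Cubn region 1 was higher in duodenum than in colon in juvenile mice (by 1.11) and in geriatric villus (1.05) and geriatric crypt (1.27) against geriatric proximal colon. In adult mice villus was lower than colon (−0.73). Between juvenile and adult mice it was higher in juvenile duodenum than in adult villus (0.72) and lower in juvenile than in adult colon (−1.12).

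Cubn region 13 was higher in duodenum than in colon in juvenile mice (0.667), in geriatric villus (2.2) and in geriatric crypt (0.529). Adult crypt was lower than adult colon (−0.606).

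Lrp2 region 1 was higher in juvenile duodenum than in juvenile colon (0.632), but lower than colon in adult villus (−0.972), adult crypt (−0.605) and geriatric villus (−0.435). It was higher in juvenile duodenum than in adult villus (1.12) and adult crypt (0.749), and lower in juvenile than in adult colon (−0.487). Of its juvenile values, the lowest in duodenum (0.654, replicate 2) was close to the highest in colon (0.641, replicate 1). In the regions with a peak in every library, juvenile duodenum stood 0.73 above juvenile colon (median, log2 scale). Under the rule on peak cover described below, the difference between juvenile duodenum and juvenile colon reversed, as it did for Cubn region 1.

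Fcgrt region 9 was lower in adult villus (−1.74) and adult crypt (−1.41) than in adult colon, and higher in geriatric villus (1.32) and geriatric crypt (1.13) than in geriatric proximal colon. The geriatric proximal colon libraries were of one part of the colon and had the shortest peak lists. They also had lower medians than adult colon in the regions with a peak in every library. Replicate 1 had no peak in Fcgrt region 9. The role of these in the values was not tested.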

How the results depend on the processing

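The 9 regions called higher in juvenile than in later duodenum became 5 on presence alone, 15 against crypt libraries only, 10 against villus libraries only, 11 with limma and 4 where a peak was needed in at least 2 libraries other than juvenile duodenum, and the 0 called lower became 1 with 50% cover. Leaving out each library in turn gave 9 to 12. The smallest adjusted p, 0.0629, was 0.0360 when the two-sided p counted divisions with as large an absolute difference, and then all 9 passed 0.05, as did 5217 regions of the series. Against juvenile colon the 23 higher calls became 6 with equal lists and 11 with 50% cover, and the 1 lower call became 0 with 50% cover, 2 when scaled to common regions and 0 with limma. In the later organs the 0 higher calls became 1 when scaled by reads and extension and 2 when scaled to common regions, and the 0 lower calls became 1 on the latter scale and 1 with limma. Leaving out 1 library gave 0 to 1 higher (1 without adult colon 1 or adult colon 3). The 2 villus calls became 1 at the stricter q, 1 with 50% cover and 5 on the common scale, and ranged from 2 to 3 without 1 library. Between juvenile and later colon the 0 higher calls became 1 on the common scale. Reversed against juvenile colon were Cubn region 1 (−2.41) and Lrp2 region 1 (−1.23) with 50% cover, and Dab2 region 11 (−1.59) with equal lists, none of them called there. The causes were not tested. Counts in this paragraph that stand without a share over all tested regions are a description only.

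Deviations of libraries with the same replicate number correlated weakly between groups (−0.0573 to 0.0914). Between villus and crypt of one age, the highest correlations were those of same-numbered libraries. Other same-numbered values there lay among those of differently numbered libraries. Whether the replicate number pairs villus with crypt libraries was not tested. With the number as a replicate block, where a call needs only the same sign in every block, 19 members were higher in juvenile duodenum and 3 lower (19.1% and 16.7% of all tested regions), 5 higher and 1 lower in later duodenum against colon, 1 higher in adult duodenum and 2 lower in juvenile than in later colon. Shares over all tested regions are not given for the comparisons after the first, so their counts are a description only. A region without a peak is only below the caller's threshold, which moved with depth and extension between libraries.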
